A study of Mus musculus with 12 samples.

Results

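The metallothioneins Mt1 and Mt2, their transcriptional activator Mtf1 and the metal transporters Slc30a1, Slc30a10, Slc39a14 and Slc39a4 are 7 of the 47263 genes in the deposited table. They were chosen by name, with earlier results of these data in view. One of those results was a difference in Mt2 between WT livers given MET/CAT and WT livers given GFP, so that difference is described here without a test. All 7 genes passed the filter on low values, which asked that 3 libraries or more reach a value of 10.

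Metallothioneins are small cysteine-rich proteins that bind zinc, copper and cadmium, and the liver makes them in quantity when zinc enters hepatocytes or when inflammation or glucocorticoids act on them. MTF1 senses free zinc and binds metal response elements in the promoters of the metallothionein genes and of the zinc exporter ZnT1. Transporters of the SLC30 family (ZnT) move metal out of the cytosol, and those of the SLC39 family (ZIP) move it in.

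RNA of whole liver was sequenced in 12 libraries, 3 in each of 4 groups. KO MET/CAT livers came from mice with a liver deletion of Sirt2 that were given plasmids for the oncogenes c-MET and an N-terminally truncated β-catenin (22.5 µg each), together with 5 µg of a plasmid for the Sleeping Beauty transposase. WT MET/CAT livers came from wild-type mice given the same plasmids. KO GFP and WT GFP livers came from mice of each genotype given a GFP plasmid, in an amount the sources used here do not state. The protocol describes an injection of 2 mL of saline into the tail vein within 5 to 7 seconds, at 6 to 8 weeks of age, with livers taken 8 weeks later, and the matching of mice for age and sex. By this route the plasmids reach mainly a part of the hepatocytes, so whole liver mixes cells that took them up with cells that did not. The design text calls the knockout specific to hepatocytes. The sources used here name neither the Cre driver nor the sex of each mouse, and they leave unsaid whether each replicate is a separate mouse. P-values therefore cover the spread among libraries, which may be technical.

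The groups follow the sample titles, because the treatment label names GFP for all WT and MET/CAT for all KO libraries, against the titles in KO GFP and WT MET/CAT. Sirt2 followed the genotype in the titles. It had 248, 234 and 200.6 normalized reads in KO MET/CAT livers, against 1068, 943 and 908 in WT MET/CAT livers. In KO GFP livers it had 233, 182 and 126, against 824, 924 and 726 in WT GFP livers. Sirt2 speaks to genotype only and cannot tell which plasmid a library had, so the plasmid of each library rests on the titles. A normalized read is a deposited value, a gene count divided by 1 factor per library, and 1 read was worth 0.753 to 1.204 of these units. The libraries held 18208879 to 24352961 recovered reads. No 2 replicates of a group matched within sampling noise. KO GFP replicate 3 stood apart from the other libraries on the first principal component, and the differences of the 7 genes that use it and passed the test are also given without it. Markers of hepatocytes were abundant in every library, with sums of 2395804 to 3816594 normalized reads over 12 genes.

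Mt1 and Mt2 lie head to tail on mouse chromosome 8. In GENCODE M21 on build GRCm38, Mt2 spans chr8:94172664-94173568 and Mt1 spans chr8:94179082-94180327, both on the plus strand, with 5513 bases between them. Their spliced coding sequences are shown because they tell how far reads from the 2 genes can be kept apart. Capitals mark the cysteine codons, whose side chains bind the metal.
Mt1: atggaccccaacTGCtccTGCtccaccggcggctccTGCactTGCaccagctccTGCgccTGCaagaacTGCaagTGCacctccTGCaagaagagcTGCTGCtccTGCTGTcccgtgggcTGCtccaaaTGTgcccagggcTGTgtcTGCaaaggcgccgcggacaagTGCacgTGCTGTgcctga
Mt2: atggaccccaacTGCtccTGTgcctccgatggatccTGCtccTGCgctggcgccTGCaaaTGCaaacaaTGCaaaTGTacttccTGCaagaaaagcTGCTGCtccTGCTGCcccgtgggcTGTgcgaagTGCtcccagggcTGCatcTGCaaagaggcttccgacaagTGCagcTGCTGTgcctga
Each coding sequence has 186 bases, and 20 of its 61 codons before the stop encode cysteine, at the same 20 places in both genes. The coding sequences are identical at 148 positions, or 79.6%. The longest run shared by the 2 transcripts is 20 bases, so that a spliced read longer than this differs between the genes somewhere along its length. Opposite exons of Mt2, Slc30a10 and Slc30a1 the annotation has Gm45774, Gm2061 and 1700034H15Rik, and since the sources used here do not give the strand setting of the counting, overlapping genes on the opposite strand may share reads.

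The promoters of the metallothioneins and of 2 transporter genes are shown because these genes include the 3 that passed the test below and the textbook MTF1 target Slc30a1. The windows run from 250 bases before to 50 bases after the start in RefSeq on GRCm38.p6, and all 4 genes are on the plus strand. Of the 7 genes, 5 had a window, namely these 4 and Mtf1. Capitals mark the core of the metal response element, searched as TGCACNC and TGCGCNC on both strands.
Mt1, chr8:94178839-94179138: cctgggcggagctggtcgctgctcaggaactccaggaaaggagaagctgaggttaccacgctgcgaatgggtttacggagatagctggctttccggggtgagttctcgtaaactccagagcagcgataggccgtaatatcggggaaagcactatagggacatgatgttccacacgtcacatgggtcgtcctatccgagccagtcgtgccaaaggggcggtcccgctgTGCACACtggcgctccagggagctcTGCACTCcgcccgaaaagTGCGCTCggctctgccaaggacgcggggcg
Mt2, chr8:94172368-94172667: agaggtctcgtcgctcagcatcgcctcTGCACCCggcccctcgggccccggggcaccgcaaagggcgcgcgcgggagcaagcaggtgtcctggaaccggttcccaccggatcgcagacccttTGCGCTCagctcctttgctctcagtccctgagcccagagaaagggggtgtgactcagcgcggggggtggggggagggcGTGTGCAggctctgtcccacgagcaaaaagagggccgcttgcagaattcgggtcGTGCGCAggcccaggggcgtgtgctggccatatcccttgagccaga
Slc30a10, chr1:185454598-185454897: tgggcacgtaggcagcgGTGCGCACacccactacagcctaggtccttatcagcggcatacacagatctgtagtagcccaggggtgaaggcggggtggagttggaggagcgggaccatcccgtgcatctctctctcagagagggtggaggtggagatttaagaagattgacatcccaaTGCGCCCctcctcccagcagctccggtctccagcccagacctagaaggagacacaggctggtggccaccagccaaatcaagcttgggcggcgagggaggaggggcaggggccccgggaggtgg
Slc30a1, chr1:191906531-191906830: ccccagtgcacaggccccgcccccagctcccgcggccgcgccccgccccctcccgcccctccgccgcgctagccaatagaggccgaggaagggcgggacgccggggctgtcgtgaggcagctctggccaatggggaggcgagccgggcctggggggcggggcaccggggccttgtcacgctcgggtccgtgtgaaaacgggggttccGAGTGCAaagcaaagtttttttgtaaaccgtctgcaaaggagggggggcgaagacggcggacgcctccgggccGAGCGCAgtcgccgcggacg
The Mt2 window held 4 cores, and those of Mt1 and Slc30a10 held 3 each. In Slc30a10 a pair of the 3 overlap, being the same bases read on opposite strands. The Slc30a1 window held 2 cores, and the Mtf1 window held 0. Among all 32544 RefSeq windows, 25.9% held at least 1 core, 7.17% at least 2, 1.99% at least 3 and 0.522% at least 4. The antioxidant response element core, searched as TGACNNNGC, was in the Mt2 and Slc30a1 windows and in 12.4% of all windows. The letters TTCNNNGAA, a STAT site, and CACGTG, an E box, were in none of the 5 windows, against 8.33% and 7.17% of all windows. These are matches of letters, and binding was not measured. The Mt1 and Mt2 windows end before the coding sequences start, at chr8:94179311 for Mt1 and chr8:94172848 for Mt2. Bases outside the windows were not searched, so these counts do not show that a gene lacks an element.

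Per kilobase of transcript the metallothioneins were the most abundant of the 7 genes, and they moved the most with MET/CAT. In normalized reads, not divided by length, Mt2 averaged 1536 in WT GFP livers, below Slc39a4 at 2258 and Slc39a14 at 1621. Mt1 had 71657, 57931 and 98874 normalized reads in KO MET/CAT livers, against 10149, 8056 and 6767 in KO GFP livers. The groups did not overlap, and even the lowest KO MET/CAT library was far above the highest KO GFP library. Mt1 rose by 3.18 on the log2 scale in KO livers given MET/CAT (SE 0.40, limma adjusted p = 0.00406), a fold of 9.05. In whole liver, a change in the number of cells of a type and a change in RNA per cell cannot be told apart. Mt2 had 44734, 33195 and 59306 normalized reads in KO MET/CAT livers, against 3255, 2262 and 1920.1 in KO GFP livers, again with no overlap. Its rise was 4.20 (SE 0.50, limma adjusted p = 0.00406), a fold of 18.4. KO livers are libraries that the WT comparison does not use, but their results were also known when the genes were chosen. Without KO GFP replicate 3 the differences were 3.04 for Mt1 and 4.04 for Mt2, both with an adjusted p of 0.0133.

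In WT livers the metallothionein values are given as a description, since Mt2 in this comparison was a reason for choosing the genes. Mt2 had 16427, 19846 and 63943 normalized reads in WT MET/CAT livers, against 1344, 2558 and 707 in WT GFP livers. WT MET/CAT replicate 3 was far above the other libraries of its group, and even the lowest of the 3 was above every WT GFP library. Mt1 had 25141, 19459 and 70717 normalized reads in WT MET/CAT livers, against 8626, 13484 and 9756 in WT GFP livers. The groups did not overlap for Mt1 either, but WT MET/CAT replicate 2 lay not far above WT GFP replicate 2. The difference was 4.35 for Mt2 (SE 0.50) and 1.64 for Mt1 (SE 0.40) on the log2 scale. The 2 comparisons with GFP use separate libraries, but their difference, the interaction, contains the WT comparison and is likewise given without a test: it was 1.53 for Mt1 (SE 0.56) and -0.15 for Mt2 (SE 0.70), KO minus WT.

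Between genotypes neither metallothionein passed the test. In MET/CAT livers Mt1 averaged 76154 ± 20839 normalized reads in KO and 38439 ± 28097 in WT (SD, n = 3 each). The difference was 1.19 (SE 0.40, limma adjusted p = 0.513), and the WT library with the highest value, replicate 3, lay above the lowest KO library. Mt2 averaged 45745 ± 13084 normalized reads in KO MET/CAT livers and 33405 ± 26501 in WT MET/CAT livers, with a difference of 0.69 (SE 0.50, limma adjusted p = 0.739). In GFP livers Mt1 differed by -0.35 (SE 0.40, limma adjusted p = 0.674) and Mt2 by 0.85 (SE 0.50, limma adjusted p = 0.399). The highest WT GFP library for Mt2, replicate 2, lay above 2 of the 3 KO GFP libraries.

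**Figure D1:**
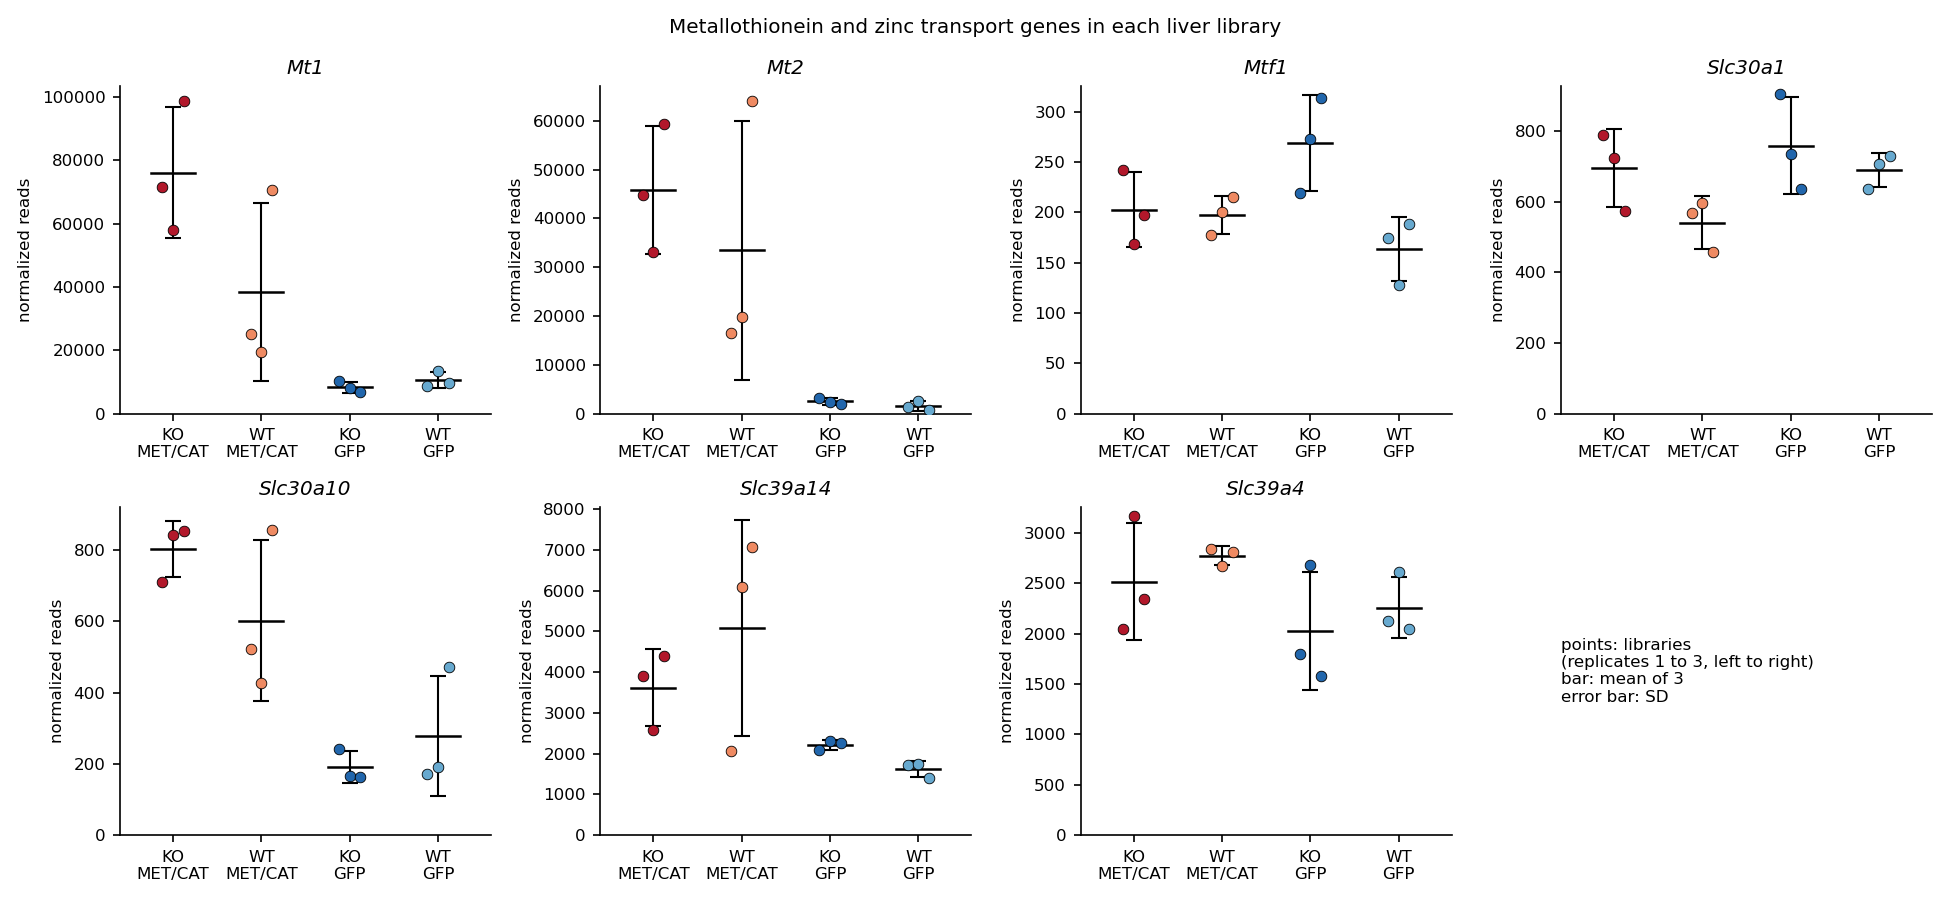
Normalized reads of each of the 7 genes (y axis, linear from 0) in the 4 groups (x axis); points are libraries, the bar is the mean of 3 and the error bar the SD. All 3 KO MET/CAT libraries of Mt1, Mt2 and Slc30a10 lie above all 3 KO GFP libraries, and WT MET/CAT replicate 3 carries the highest value of its group for both metallothioneins and for Slc30a10.

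The Mt2 to Mt1 ratio was higher in every MET/CAT library than in every GFP library, and its KO and WT values did not overlap under either plasmid. Because both genes are read in the same library, it does not depend on how the libraries are scaled. The Mt2 to Mt1 ratio of normalized reads was 0.624, 0.573 and 0.600 in KO MET/CAT livers, against 0.653, 1.02 and 0.904 in WT MET/CAT livers. It was 0.321, 0.281 and 0.284 in KO GFP livers, against 0.156, 0.190 and 0.0724 in WT GFP livers. Every KO GFP library was above every WT GFP library, and every KO MET/CAT library was below every WT MET/CAT library, although KO MET/CAT replicate 1 and WT MET/CAT replicate 1 lay close together. The KO to WT difference in the log2 ratio was 1.19 in GFP livers and -0.50 in MET/CAT livers, each with an exact two-sided permutation p of 0.1. With 3 libraries against 3 that is the smallest p the design allows. The WT ratios contain the Mt2 values of WT livers, whose difference between plasmids was in view when the genes were chosen. Nothing is therefore read from the opposite directions.

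Together the 2 genes took a much larger share of the library with MET/CAT. Their summed share of normalized reads was 0.531, 0.410 and 0.785% in KO MET/CAT livers, against 0.0734, 0.0517 and 0.0510% in KO GFP livers. In WT MET/CAT livers it was 0.171, 0.189 and 0.608%, against 0.0496, 0.0697 and 0.0542% in WT GFP livers. Between genotypes the log2 share differed by 1.04 in MET/CAT livers (exact two-sided permutation p = 0.3) and by 0.02 in GFP livers (exact two-sided permutation p = 0.9).

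**Figure D2:**
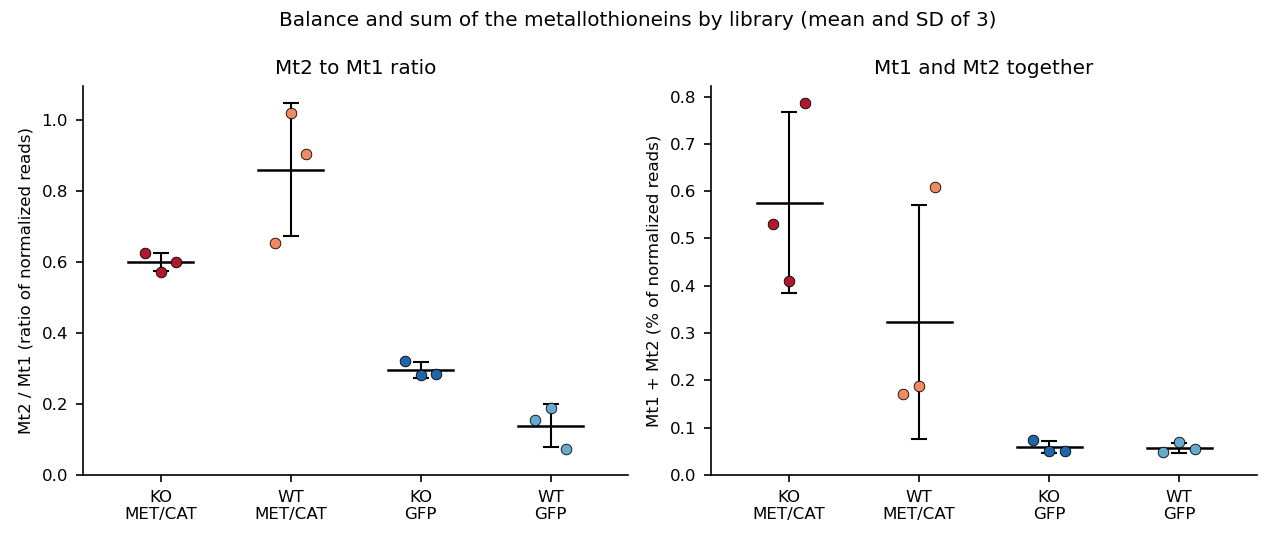
The ratio of Mt2 to Mt1 normalized reads (left y axis) and the share of Mt1 and Mt2 together in each library, in percent (right y axis), for the 4 groups (x axis); points are libraries, the bar is the mean of 3 and the error bar the SD. The ratio is at most 0.321 in the 6 GFP libraries and at least 0.573 in the 6 MET/CAT libraries.

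Mtf1, the zinc-sensing activator of both genes, did not pass the test in any comparison. It lies at chr4:124802104-124849800 on the plus strand. It had 242, 168 and 197 normalized reads in KO MET/CAT livers, against 219, 273 and 314 in KO GFP livers, and 177, 200.4 and 215 in WT MET/CAT livers, against 174, 128 and 188 in WT GFP livers. The MET/CAT difference was -0.40 in KO livers (SE 0.24, limma adjusted p = 0.354) and 0.29 in WT livers (SE 0.24). All 3 KO GFP libraries lay above all 3 WT GFP libraries, with a difference of 0.72 (SE 0.24, limma adjusted p = 0.287) that did not pass the test. In MET/CAT livers the genotype difference was 0.03 (SE 0.24, limma adjusted p = 0.979). The gene 1110065P20Rik overlaps an exon of Mtf1 on the other strand, so a part of these low counts may belong to it.

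Of the 2 exporters among the 7, 1 rose with MET/CAT in KO livers. Slc30a10, at chr1:185454848-185468762 on the plus strand, encodes ZnT10, which despite its family exports mainly manganese from liver cells. It had 712, 843 and 852 normalized reads in KO MET/CAT livers, against 242, 166 and 164 in KO GFP livers, without overlap, and rose by 2.09 (SE 0.35, limma adjusted p = 0.014), a fold of 4.25. This call was lost without KO MET/CAT replicate 2 (adjusted p = 0.0548) and without KO GFP replicate 2 (adjusted p = 0.0533), with differences within 1.99 to 2.27 over all libraries left out in turn. Without KO GFP replicate 3 the difference was 1.99 with an adjusted p of 0.05. In WT livers Slc30a10 had 522, 427 and 857 normalized reads with MET/CAT, against 172, 190.4 and 471 with GFP. Those groups overlapped, since WT GFP replicate 3 lay above WT MET/CAT replicate 2, and the difference was 1.21 (SE 0.35). The genotype difference was 0.47 in MET/CAT livers (SE 0.35, limma adjusted p = 0.742) and -0.41 in GFP livers (SE 0.35, limma adjusted p = 0.564).

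Slc30a1, at chr1:191906767-191913247 on the plus strand, encodes ZnT1, the zinc exporter of the plasma membrane. It had 789.9, 723 and 575 normalized reads in KO MET/CAT livers, against 906, 737 and 636 in KO GFP livers, and 569, 597 and 457 in WT MET/CAT livers, against 635, 706 and 729 in WT GFP livers. The KO groups overlapped, and the difference was -0.12 (SE 0.20, limma adjusted p = 0.763). All 3 WT MET/CAT libraries lay below all 3 WT GFP libraries, with a difference of -0.36 (SE 0.20). The genotype differences were 0.36 in MET/CAT livers (SE 0.20, limma adjusted p = 0.671) and 0.12 in GFP livers (SE 0.20, limma adjusted p = 0.769).

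Neither importer passed the test in KO livers or between genotypes. Slc39a14, at chr14:70303469-70351425 on the minus strand, encodes ZIP14, which brings zinc, manganese and iron not bound to transferrin into hepatocytes and is known in mice to be induced by interleukin-6 in the acute phase response. It had 3897, 2579.9 and 4388 normalized reads in KO MET/CAT livers, against 2081, 2313 and 2268 in KO GFP livers. The groups did not overlap, but the difference of 0.67 (SE 0.36, limma adjusted p = 0.309) did not pass the test. In WT livers Slc39a14 had 2064, 6095 and 7064 normalized reads with MET/CAT, against 1710.2, 1744 and 1408 with GFP. WT MET/CAT replicate 1 was close to the GFP libraries and the other 2 were far above it, with a difference of 1.47 (SE 0.36). All 3 KO GFP libraries lay above all 3 WT GFP libraries, with a difference of 0.46 (SE 0.36, limma adjusted p = 0.521). In MET/CAT livers the genotype difference was -0.34 (SE 0.36, limma adjusted p = 0.816).

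Slc39a4, at chr15:76612383-76617384 on the minus strand, encodes ZIP4, best known as the zinc importer of the intestine, where its loss causes acrodermatitis enteropathica in humans. In these livers it had 2042, 3166 and 2343 normalized reads in KO MET/CAT livers, against 1799, 2686 and 1580.2 in KO GFP livers, and 2841, 2668 and 2811 in WT MET/CAT livers, against 2123, 2608 and 2044 in WT GFP livers. It varied the least with the plasmids among the transporters whose values were higher with MET/CAT. The MET/CAT difference was 0.33 in KO livers (SE 0.22, limma adjusted p = 0.414) and 0.30 in WT livers (SE 0.22), where the 3 MET/CAT libraries lay narrowly above the 3 GFP libraries. The genotype differences were -0.16 in MET/CAT livers (SE 0.22, limma adjusted p = 0.856) and -0.19 in GFP livers (SE 0.22, limma adjusted p = 0.681).

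**Figure D3:**
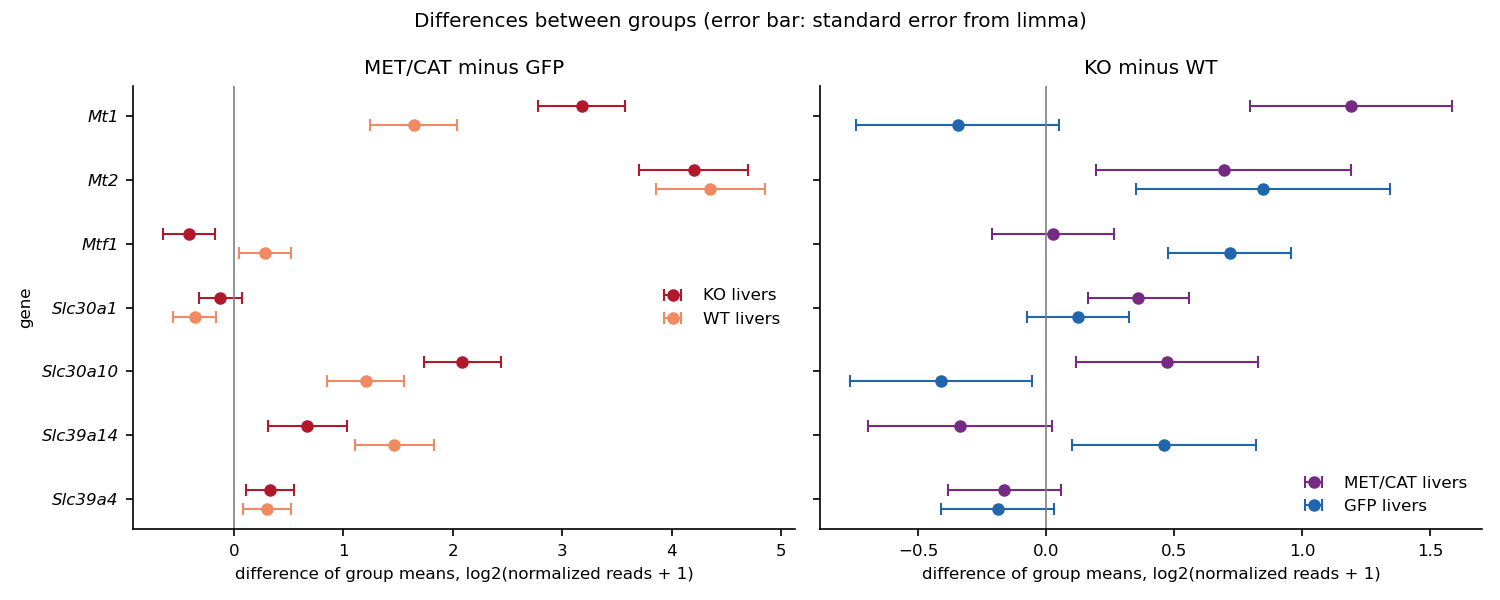
Differences of group means on the log2(normalized reads + 1) scale (x axis) for the 7 genes (y axis), MET/CAT minus GFP on the left and KO minus WT on the right; points are limma estimates and bars their standard errors. Mt1, Mt2 and Slc30a10 in KO livers passed the test at 3.18, 4.20 and 2.09; the WT points on the left are shown without a test, and no KO minus WT difference passed.

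Counted together, 3 of the 7 genes rose with MET/CAT in KO livers and 0 fell, where 0.858% of the 13871 genes tested rose and 0.397% fell, 1.25% in all. These KO results were known when the genes were chosen, so nothing is read from the count. All 3 KO MET/CAT libraries lay above all 3 KO GFP libraries for 4 of the 7, against 14.4% of all genes. In WT livers 1 of the 7, Mt2, was past the same threshold, where 0.209% of all genes were higher and 0.13% lower, and nothing is read from that count because the genes were chosen with it in view. There the groups did not overlap for 4 of the 7 upward, against 10.5% of all genes, and for 1 of the 7 downward, against 10.3%. Between genotypes 0 of the 7 passed in GFP livers, where 0.00721% of all genes did, in MET/CAT livers, where likewise 0.00721% did, and averaged over the plasmids, where 0.0144% did. At an unadjusted p under 0.05, limma had 2155 genes in the GFP comparison, 1076 in the MET/CAT comparison and 1125 in the average, and among the 7 these were Mtf1 in GFP livers, Mt1 in MET/CAT livers, and Mt2 and Mtf1 in the average. DESeq2 and edgeR also called 0 of the 7 in each of these 3 comparisons. All 3 KO libraries lay above all 3 WT libraries for 2 of the 7 in GFP livers, against 9.15% of all genes, and below for 0 of the 7, against 13%. In MET/CAT livers it was 0 of the 7 above, against 6.82% of all genes, and 0 of the 7 below, against 7.01%. Comparisons that share a group of libraries, such as MET/CAT against GFP in KO livers and KO against WT in GFP livers, are not independent.

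Per kilobase of the principal transcript, Mt1 ranked 10th in KO MET/CAT livers among the 22115 genes with a length, 22nd in WT MET/CAT livers, 87th in KO GFP livers and 89th in WT GFP livers. Mt2 ranked 14th, 23rd, 310th and 580th in the same 4 groups. In every library the metallothioneins came first and second among the 7 by this level per length, then the importers Slc39a14 and Slc39a4, then the exporters and Mtf1. Mt1 was ahead of Mt2 in 11 of the 12 libraries, the exception being WT MET/CAT replicate 2. The importers changed places between libraries of the MET/CAT groups, so their order does not hold beyond the spread, while Slc39a4 came first in all 6 GFP libraries. Slc30a1 was ahead of Slc30a10 in all 6 GFP libraries, and the order varied among the MET/CAT libraries. Averaged over KO MET/CAT livers the level was 138715 normalized reads per kilobase for Mt1 and 26.6 for Mtf1.

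No other metallothionein or zinc transporter passed the test in any of these comparisons. Of 8 other SLC30 exporters 6 were tested in KO MET/CAT against KO GFP livers, with 2 values higher and a median difference of -0.09, against 0.05 over all genes tested. Of 12 other SLC39 importers 10 were tested, with 7 values higher and a median of 0.12. The importer Slc39a6 had 99.95, 87.9 and 71.1 normalized reads in KO MET/CAT livers, against 42.9, 42.3 and 34.4 in KO GFP livers, with no overlap and a difference of 1.09 (SE 0.34, limma adjusted p = 0.118). Slc39a5, an importer on the basolateral side of gut and pancreas cells in mice, had 167, 238 and 118 normalized reads in KO MET/CAT livers, against 72.3, 97.0 and 88.6 in KO GFP livers, with a difference of 0.96 (SE 0.32, limma adjusted p = 0.134). Among genes of zinc enzymes and zinc carriers, 0 of 10 tested rose or fell.

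Between genotypes in GFP livers the other gene with the smallest p was Mt3 among the metallothioneins, Slc30a4 among the exporters and Slc39a3 among the importers. Mt3, known from neurons, had 1.51, 18.2 and 7.23 normalized reads in KO GFP livers, against 29.9, 31.7 and 26.9 in WT GFP livers, a difference of -2.05 (SE 0.69, limma adjusted p = 0.287). These are few reads, but the groups did not overlap. In MET/CAT livers Mt3 had 22.9, 5.23 and 9.55 normalized reads in KO, against 35.9, 24.25 and 41.1 in WT, again without overlap. Averaged over plasmids its difference was -1.80 (SE 0.49, limma adjusted p = 0.508). Mt3 was the only other metallothionein tested. Slc30a4, which fills vesicles with zinc, had 178, 176 and 268 normalized reads in KO GFP livers, against 125, 66.9 and 115 in WT GFP livers, a difference of 1.03 (SE 0.28, limma adjusted p = 0.272). Slc39a3 had 281, 378 and 304 normalized reads in KO GFP livers, against 513, 539 and 469.5 in WT GFP livers, a difference of -0.67 (SE 0.19, limma adjusted p = 0.272). None of the 3 passed the test.

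Copper is the other metal that metallothioneins store. Of 12 genes of copper handling 10 were tested, and 1 fell with MET/CAT in KO livers, where 0.397% of all genes fell. That was Atp7b, the copper pump of hepatocytes that is mutated in Wilson disease. It spanned 147.5 to 272.8 normalized reads in KO MET/CAT livers, against 419.8 to 1095.6 in KO GFP livers, a difference of -1.65 (SE 0.37, limma adjusted p = 0.0461). The call was narrow: it was lost in 10 of the 12 fits that left out 1 library, and without KO GFP replicate 3 the difference was -1.21 with an adjusted p of 0.128. In WT livers the Atp7b difference was -0.24 (SE 0.37, limma adjusted p = 0.794). Atp7b was also higher in KO GFP than in WT GFP livers, where it spanned 204 to 395.8, without overlap. That difference was 1.04 (SE 0.37, limma adjusted p = 0.287). Its interaction, KO minus WT, was -1.41 (SE 0.52), given without a test.

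In the acute phase response the liver makes metallothioneins along with serum amyloid A. Of 24 acute phase genes, 7 rose with MET/CAT in KO livers, where 0.858% of all genes rose, and 0 fell. All 24 values were higher, with a median difference of 1.11, against 0.05 over all genes tested. In WT livers 1 of the 24 was past the threshold upward, where 0.209% of all genes were, and 21 values were higher, with a median of 1.05. In KO livers Saa1 and Saa2, the serum amyloid A genes, rose by 7.46 (SE 0.92, limma adjusted p = 0.00406) and 8.65 (SE 1.09, limma adjusted p = 0.0041). Socs3, a feedback inhibitor of interleukin-6 signalling, rose by 4.25 (SE 0.63, limma adjusted p = 0.00741). These 3 genes lost their call in 0 of the 12 fits that left out 1 library. Saa1 spanned 81.36 to 343.3 normalized reads in KO GFP livers, against 446.8 to 2230.2 in WT GFP livers. For Saa2 the values were 33.45 to 151.8, against 211.4 to 1291.9. Neither genotype difference passed the test. The interaction, KO minus WT, was 4.01 for Saa1 (SE 1.30) and 4.44 for Saa2 (SE 1.55), given without a test. Of 17 genes tested from a list of glucocorticoid targets, 0 passed the test with MET/CAT in KO livers. Their values were higher for 11 and lower for 6, with a median of 0.32. Of 18 genes of the NRF2 and oxidative stress response, 13 values were higher and 5 lower, with a median of 0.73. Among these 18, 0 passed upward and 1 downward, where 0.397% of all genes fell. That was Gclm, a subunit of the enzyme that starts glutathione synthesis (log2 difference -0.78, SE 0.18, limma adjusted p = 0.0468). Gclm lost its call in 10 of the 12 fits that left out 1 library. It was also higher in KO GFP than in WT GFP livers, without overlap, by 0.69 (SE 0.18, limma adjusted p = 0.272). Its interaction, KO minus WT, was -0.76 (SE 0.25), given without a test. The part of the acute phase in the metallothionein difference was not tested.

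Some markers of myeloid cells also rose with MET/CAT in KO livers. Of 10 neutrophil markers tested, 4 rose with MET/CAT in KO livers, where 0.858% of all genes rose, and the sum over 12 markers was 439.4 to 3372 normalized reads in KO MET/CAT livers, against 77.6 to 108.5 in KO GFP livers. In WT livers the sum was 357.8 to 1129 with MET/CAT, against 97.9 to 251.6 with GFP. Of 12 macrophage and Kupffer cell markers, 2 rose in the same comparison, with a sum of 7171 to 9554 in KO MET/CAT livers, against 1608 to 4675 in KO GFP livers. In WT livers that sum was 6376 to 8955 with MET/CAT, against 7716 to 10543 with GFP, and 3 of the 12 markers had higher values with MET/CAT. Among the neutrophil markers Cxcr2 was at 0 in all 3 KO GFP libraries, and no marker of either list was at 0 in all 12 libraries. S100a9 had 1616, 198 and 304 normalized reads in KO MET/CAT livers, against 24.1, 50.0 and 19.0 in KO GFP livers. The part of these cells in the metallothionein difference was not tested.

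Between genotypes in GFP livers, 17 of 17 glucocorticoid targets had higher values in KO, with a median difference of 0.80, against -0.07 over all genes tested, and 0 passed the test. All 12 macrophage and Kupffer cell markers had lower values in KO GFP livers than in WT GFP livers, with a median of -1.39, and 0 passed. All 11 lymphocyte markers tested were likewise lower, with a median of -1.11, and 0 passed. Of the acute phase genes 6 values were higher and 18 lower, with a median of -0.22, and 0 passed. These values stand beside the higher Mt2 to Mt1 ratio of KO GFP livers, and their part in it was not tested. In MET/CAT livers, where that ratio was lower in KO, 14 of 17 glucocorticoid targets had higher values in KO and 3 lower. Their median there was 0.73. For the macrophage and Kupffer cell markers 7 of 12 were higher there, and for the lymphocyte markers 6 of 11. Of the acute phase genes 9 were higher and 15 lower in that comparison, with a median of -0.06.

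The genes nearest in pattern were found by the root mean square difference of log2 values over the 12 libraries, after each gene was centred on its own mean, among 8926 genes. Nearest to Mt1 was Lrg1, a secreted glycoprotein made by hepatocytes in the acute phase, at 0.61, and Slc30a10 came second at 0.64. Then came Nfil3, a transcription factor of circadian and immune genes, at 0.66, Insig2, a regulator of cholesterol synthesis, at 0.68, Siglece, a sialic acid receptor of myeloid cells, at 0.69, and Lrfn3 at 0.72. For scale, Mt1 lay 1.36 from a flat pattern and 1.09 from Mt2, which ranked 271st in nearness to Mt1. Lrg1 had 31998, 29728 and 32494 normalized reads in KO MET/CAT livers, 15082, 21399 and 29281 in WT MET/CAT livers, 5422, 8056 and 2932 in KO GFP livers and 8959, 16817 and 5732 in WT GFP livers. Its groups differ from those of Mt1 in that WT GFP replicate 2 lay above WT MET/CAT replicate 1.

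Nearest to Mt2 was Lcn2, an iron-carrier-binding protein of the acute phase, at 1.05, and Mt1 came second at 1.09. They were followed by C5ar1, a complement receptor of myeloid cells, at 1.15, Spic, a transcription factor of iron-recycling macrophages, at 1.15, Retnlg, a neutrophil product, at 1.16, and S100a9, a calcium-binding protein of neutrophils, at 1.19. Mt2 itself lay 2.26 from a flat pattern. Lcn2 had 7783, 1856 and 4490.0 normalized reads in KO MET/CAT livers, 707, 6054 and 11643 in WT MET/CAT livers, 91.8, 253 and 129 in KO GFP livers and 240.3, 623 and 146 in WT GFP livers. In Mt2 as in Lcn2, WT MET/CAT replicate 3 held the highest and WT MET/CAT replicate 1 the lowest value of that group. The order of the WT GFP libraries was also the same in both genes, but that of the KO libraries was not. In KO MET/CAT livers Mt2 was highest in replicate 3 and Lcn2 in replicate 1. In KO GFP livers Mt2 was highest in replicate 1, where Lcn2 was lowest. These distances share the same 12 libraries and describe them only.

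**Figure D4:**
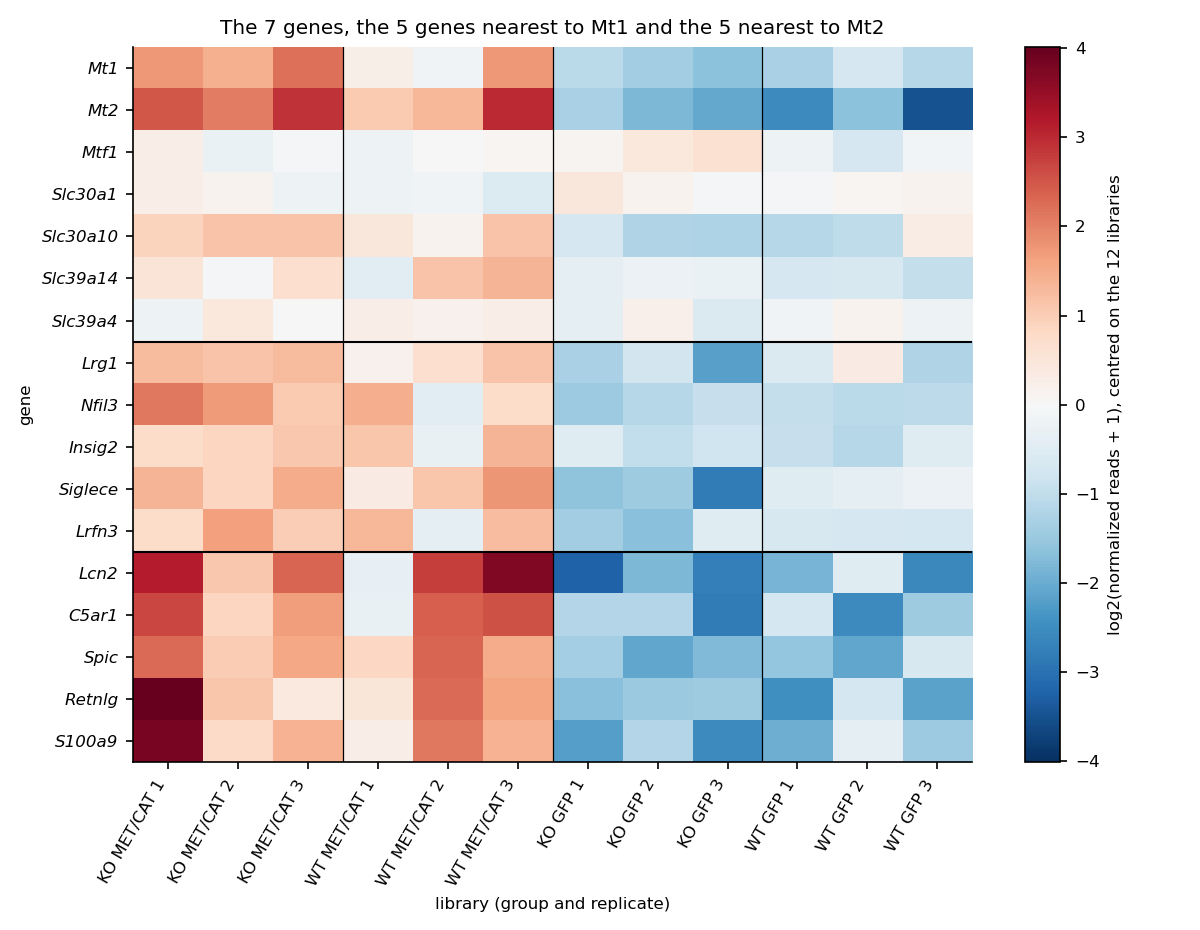
Log2(normalized reads + 1) of each gene minus its own mean over the 12 libraries (colour) in each library (x axis); rows are the 7 genes, then the 5 genes nearest to Mt1, then the 5 nearest to Mt2 (y axis). Mt2 lies above its mean in all 6 MET/CAT libraries and below it in all 6 GFP libraries; Mt1 departs from this in WT MET/CAT replicate 2, at -0.133, and Slc30a10 in WT GFP replicate 3, at 0.298. Mtf1 spans -0.659 to 0.627, a narrower range than Mt1 or Mt2.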

How the data were processed

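Total RNA of whole liver was sequenced. HISAT2 2.0.4, HTSeq 0.11.2 and build GRCm38 appear in the submitters' processing notes; the sources used here do not name the kit, the strand setting or the tool behind the normalization. The deposited values are a signal: the authors divided each gene count by a factor of its library. Every library's values (100%) were whole multiples of 1 step, within 0.1 reads, and dividing by it recovered the reads, which for the first replicate of WT GFP and of WT MET/CAT shows little, since that step is almost 1. The 7 genes had 113 to 93148 reads per library. For Mt1 and Mt2 the counting error is small beside the spread between libraries. For a gene with few reads it can come close to that spread, as for Mtf1, with 178, 190 and 193 reads in WT MET/CAT livers.

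The values were tested with limma 3.58.1 in R 4.3.3 on log2(value + 1), with a mean-variance trend and 4 group means over all 12 libraries. Genes had to reach 10 in 3 libraries or more, which left 13871. P-values were adjusted by Benjamini-Hochberg over all genes of a comparison, and genes passed at an adjusted p under 0.05. A fold change on this scale understates the change of low genes. Single ratios and shares were compared by exact permutation of libraries with scipy 1.17.1. edgeR 4.0.16 (quasi-likelihood) and DESeq2 1.42.0 on the recovered reads were alternatives, along with other pseudocounts, filters and scalings, library weights, a replicate block and leaving out each library. The code was checked on simulated data.

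The 7 genes and the gene lists were chosen with earlier results of these data known. Named were the 7, Sirt2, other zinc transporters or metallothioneins that passed, up to 3 genes per list with the smallest p in the comparison described, and the 5 genes nearest to Mt1 and to Mt2, leaving out predicted genes, among those with a mean of at least 100 in their highest group.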

Additional observations from a re-analysis of the deposited data

Results flagged for a closer look

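The KO and WT values of the Mt2 to Mt1 ratio lay apart in opposite directions under the 2 plasmids, with no overlap in either. In GFP livers the log2 ratio was higher in KO than in WT by 1.19, with ratios of 0.321, 0.281 and 0.284 in KO GFP libraries, against 0.156, 0.190 and 0.0724 in WT GFP libraries. In MET/CAT livers the KO to WT difference was -0.497, with ratios of 0.624, 0.573 and 0.600 in KO MET/CAT libraries, against 0.653, 1.02 and 0.904 in WT MET/CAT libraries. The difference between these 2 differences was not tested, and each has an exact permutation p of 0.1, the smallest that 3 libraries against 3 allow. The WT ratios contain the WT Mt2 values that were in view when the genes were chosen, so nothing is read from the opposite directions. With each library left out in turn, chosen as a check after the data were seen, the differences were 0.777 to 1.47 in GFP livers and -0.682 to -0.361 in MET/CAT livers.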

How the results depend on the processing

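In KO livers given MET/CAT, Mt1, Mt2 and Slc30a10 passed the test under every alternative to the fit that kept all libraries of the comparison, including edgeR, DESeq2, equal library totals and quantile normalization. Weights for library quality added Slc39a14 (difference 0.79, adjusted p = 0.0449). Leaving out each library in turn gave 2 to 3 of the 7. In WT livers given MET/CAT the count was 1, 3 with DESeq2, 4 with the weights and 1 to 3 with a library left out (2 when WT GFP replicate 3 was dropped, 3 when the first WT MET/CAT library was). Between genotypes in GFP livers the weights called 3 of the 7 (Mt2 at 1.19, Mtf1 at 0.41 and Slc30a1 at 0.43), but they also called 1934 genes higher and 2641 lower over the whole table, with weights of 7.25 for WT GFP replicate 1 and 0.24 for KO GFP replicate 3.

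Some small differences changed sign, and none of these was past the threshold. For KO against WT averaged over plasmids, Slc30a10 was -0.038 with DESeq2, -0.031 with edgeR and -0.003 with quantile normalization, and Slc39a14 was -0.123 with the weights. With the weights Mt1 was 0.112 and Slc30a10 0.27 in KO against WT GFP livers, and Mtf1 was -0.037 in KO against WT MET/CAT livers. With a library left out, averaged over plasmids, Slc30a10 spanned -0.101 to 0.26 and Slc39a14 -0.217 to 0.227. In KO against WT GFP livers Slc30a1 spanned -0.01 to 0.245 and Slc30a10 -0.675 to 0.047. Mtf1 spanned -0.11 to 0.15 in KO against WT MET/CAT livers, and Slc30a1 -0.243 to 0.012 with MET/CAT against GFP in KO livers. The cause was not tested.

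Same-numbered replicates deviated together (correlation over 0.1) in 5 of 18 pairs, with correlations from -0.195 to 0.280. Differently numbered libraries were not compared in this way, so whether the numbers pair the libraries was not settled. A replicate block gave 3 of the 7 with MET/CAT in KO livers, 1 in WT livers and 0 in each genotype comparison, and changed no call. Scaling to equal library totals moved the median of all genes to -0.17 with MET/CAT in KO livers, against 0.05 as deposited. It gave 83 genes higher and 108 lower, against 119 and 55 as deposited. In KO against WT GFP livers it moved the median to 0.11, against -0.07 as deposited. Of the other metal genes with values above, Mt3, Slc30a4 and Slc39a3 passed between genotypes in GFP livers with the weights, and Slc39a6 and Slc39a5 with MET/CAT in KO livers; DESeq2 also called Slc30a4 and Slc39a6.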
